A study of Mus musculus with 12 samples.

Results

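The 10 genes described here control how mouse heart takes up glucose, commits it to glycolysis, and decides whether pyruvate is burned or turned into lactate. They are the glucose transporters Slc2a1 and Slc2a4, the hexokinases Hk1 and Hk2, the phosphofructokinases Pfkm and Pfkp, the pyruvate dehydrogenase kinases Pdk1, Pdk2 and Pdk4, and the lactate dehydrogenase subunit Ldha. They were listed by name for their place in the pathway, with earlier results of these data known, and each is 1 row among the 34714 genes of the deposited table. All 10 passed the filter on low values, which asked for 1 or more in 4 libraries and kept 12005 genes.

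Glucose enters a heart muscle cell through GLUT1 (Slc2a1), which sits in the membrane at all times, or through GLUT4 (Slc2a4), which insulin and contraction bring to the surface. Hexokinase then traps it as glucose 6-phosphate, and phosphofructokinase catalyses the committed step of glycolysis. The pyruvate dehydrogenase complex passes pyruvate on to the mitochondrial citric acid cycle, the PDH kinases switch that complex off by phosphorylation, and lactate dehydrogenase converts pyruvate and lactate into each other. The adult heart draws most of its energy from fatty acids, and the fetal heart relies more on glucose.

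RNA from mouse heart was sequenced in a study of leflunomide and of cardiac toxicity under anti-PD-1 in mice with melanoma. Anti-PD-1 (aPD1) antibodies release T cells from the PD-1 checkpoint, IgG serves as the antibody control, and leflunomide (lef) is a drug that dampens immune cells by blocking pyrimidine synthesis. The groups are anti-PD-1 with leflunomide (aPD1_lef, 4 libraries), anti-PD-1 with what is read here as vehicle (aPD1_veh, 4 libraries), and IgG with leflunomide (IgG_lef, 3 of the 4 labelled libraries used). As labelled, aPD1_veh and IgG_lef differ in antibody and in drug, and no IgG group with vehicle was analysed here. That IgG_lef hearts received the drug rests on the label alone. The sources used here give no strain, age, dose or time, and do not say that 1 library is 1 animal, so p-values cover only the spread between these samples.

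Values are taken as FPKM, which divides by gene length, so levels can be set side by side between genes. Totals were 393494 to 413010 in aPD1_lef, 441935 to 465511 in aPD1_veh and 413628 to 440748 in IgG_lef, and read depth is unknown. Replicate 4 of aPD1_lef stood apart. It correlated with its group at 0.91 to 0.95 across genes, against 0.978 to 0.992 between the other libraries of a group, and it was the highest or the lowest of the 11 libraries in 7 of the 10 genes, against 63.0% of all genes tested. For the 10 genes and their ratios, results that rest on it are therefore given with and without it. For related genes this is done in part. The heart label was checked against markers: 8 heart muscle genes summed to 32585 to 43193 FPKM in aPD1_veh, 32557 to 37095 in IgG_lef, and 29169, 32014, 24950 and 12189 in aPD1_lef replicates 1 to 4. The atrial gene Myl7 measured 32.5 FPKM in aPD1_lef replicate 1, 43.0 in its replicate 2, and 266 in IgG_lef replicate 2. It reached no more than 1.78 elsewhere. The sum of 5 atrial markers, Myl7 among them, was 4292, 2164, 5186 and 4867 FPKM in aPD1_lef replicates 1 to 4. It was 28.1 to 597 FPKM in aPD1_veh and 174 to 1306 in IgG_lef. In aPD1_lef replicates 3 and 4, where Myl7 was at 0.131 and 0.164 FPKM, that sum thus came from other markers of the list. Of the 5, Sln and Bmp10 did not pass the filter on low values. Among the 3 atrial genes tested, 1 rose against aPD1_veh. Whether these libraries hold atrial tissue was not tested.

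Promoter sequences show what the genes differ in at their start sites. The windows below, from RefSeq on GRCm38.p6, run from 250 bases before to 50 bases after the annotated start and are written 5′ to 3′ on the gene's strand. Capitals mark ACGTG or its reverse complement CACGT, a form of the core bound by hypoxia-inducible factors. They include it where it lies in the E-box CACGTG, which overlaps it. The form GCGTG was not searched for, and its letters do occur in the Pfkp window shown. A window was found for 9 of the 10 genes, and Slc2a4 had none. Ldha, Slc2a1 and Hk2 are shown as genes of glucose use that hold ACGTG or CACGT. Pdk2 is shown as a PDH kinase that holds them in an E-box, and Pfkp because it rose most and holds neither.
Ldha, chr7:46845554-46845853, + strand: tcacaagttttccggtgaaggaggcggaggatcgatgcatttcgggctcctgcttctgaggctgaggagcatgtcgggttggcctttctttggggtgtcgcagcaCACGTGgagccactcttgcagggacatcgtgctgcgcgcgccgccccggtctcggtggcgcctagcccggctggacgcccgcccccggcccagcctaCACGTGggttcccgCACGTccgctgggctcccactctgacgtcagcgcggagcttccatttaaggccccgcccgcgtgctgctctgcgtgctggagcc
Slc2a1, chr4:119108495-119108794, + strand: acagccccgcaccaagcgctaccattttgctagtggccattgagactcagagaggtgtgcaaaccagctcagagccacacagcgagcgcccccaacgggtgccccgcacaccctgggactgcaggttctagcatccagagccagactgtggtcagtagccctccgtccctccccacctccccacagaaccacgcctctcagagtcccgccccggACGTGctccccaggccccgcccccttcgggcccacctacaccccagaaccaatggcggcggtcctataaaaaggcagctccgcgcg
Hk2, chr6:82774405-82774704, - strand: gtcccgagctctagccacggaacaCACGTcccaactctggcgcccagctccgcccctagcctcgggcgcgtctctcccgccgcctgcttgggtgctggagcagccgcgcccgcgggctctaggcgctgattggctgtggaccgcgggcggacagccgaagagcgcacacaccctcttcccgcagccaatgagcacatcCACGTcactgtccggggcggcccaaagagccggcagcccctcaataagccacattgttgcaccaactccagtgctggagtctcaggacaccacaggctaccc
Pdk2, chr11:95041322-95041621, - strand: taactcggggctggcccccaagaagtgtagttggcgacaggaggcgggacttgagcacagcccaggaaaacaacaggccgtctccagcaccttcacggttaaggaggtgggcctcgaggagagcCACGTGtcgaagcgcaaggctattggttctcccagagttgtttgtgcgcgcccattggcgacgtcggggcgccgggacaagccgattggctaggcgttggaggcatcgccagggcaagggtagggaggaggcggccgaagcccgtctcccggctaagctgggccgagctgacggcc
Pfkp, chr13:6648722-6649021, - strand: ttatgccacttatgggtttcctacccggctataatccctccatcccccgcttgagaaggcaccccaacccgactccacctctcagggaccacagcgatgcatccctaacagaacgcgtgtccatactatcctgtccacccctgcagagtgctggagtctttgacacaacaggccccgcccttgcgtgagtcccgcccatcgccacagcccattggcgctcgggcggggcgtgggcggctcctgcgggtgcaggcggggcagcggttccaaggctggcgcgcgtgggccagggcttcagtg

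Searched on both strands, ACGTG or CACGT was present in 7 of the 16 windows of these genes, belonging to 6 genes, and in 19.6% of all 32851 windows in the table. The Ldha window shown holds 3 capitalised stretches, and both of its E-boxes lie upstream of the other stretch. CACGTG was present in 7.15% of all windows. AAGGTCA, the element of the estrogen-related receptors, and its reverse complement were in none of the 16 windows and in 4.72% of all windows. A match in these letters is a description and not a binding site.

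The first comparison, aPD1_lef against aPD1_veh, bears on what leflunomide changed in hearts under anti-PD-1. Slc2a4, Pfkm, Pdk2 and Pdk1 were lower and Pfkp was higher in the libraries labelled aPD1_lef. The insulin-responsive transporter Slc2a4 averaged 0.465 times, the muscle phosphofructokinase Pfkm 0.581 times and the PDH kinase Pdk2 0.521 times the aPD1_veh mean. Pfkp, the platelet-type phosphofructokinase, averaged 3.12 times it. Pdk1 was lower by a smaller amount, at 0.808 times. With limma on log2(FPKM + 1) and Benjamini-Hochberg adjustment over the 12005 genes, 1 of the 10 genes was higher and 4 were lower at an adjusted p below 0.05, while 5 did not pass. Of all genes tested, 32.4% were called, 18.2% higher and 14.3% lower, so the number called among the 10 is not far from what the whole table shows. The median log2 change of the 10 was -0.23, against 0.04 over all genes. The same 5 genes, and no other of the 10, had group values that did not overlap, against 36.1% of all genes (20.6% higher and 15.5% lower). At an unadjusted p below 0.05 there were again 5 of the 10, against 44.0% of all genes.

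**Figure D1:**
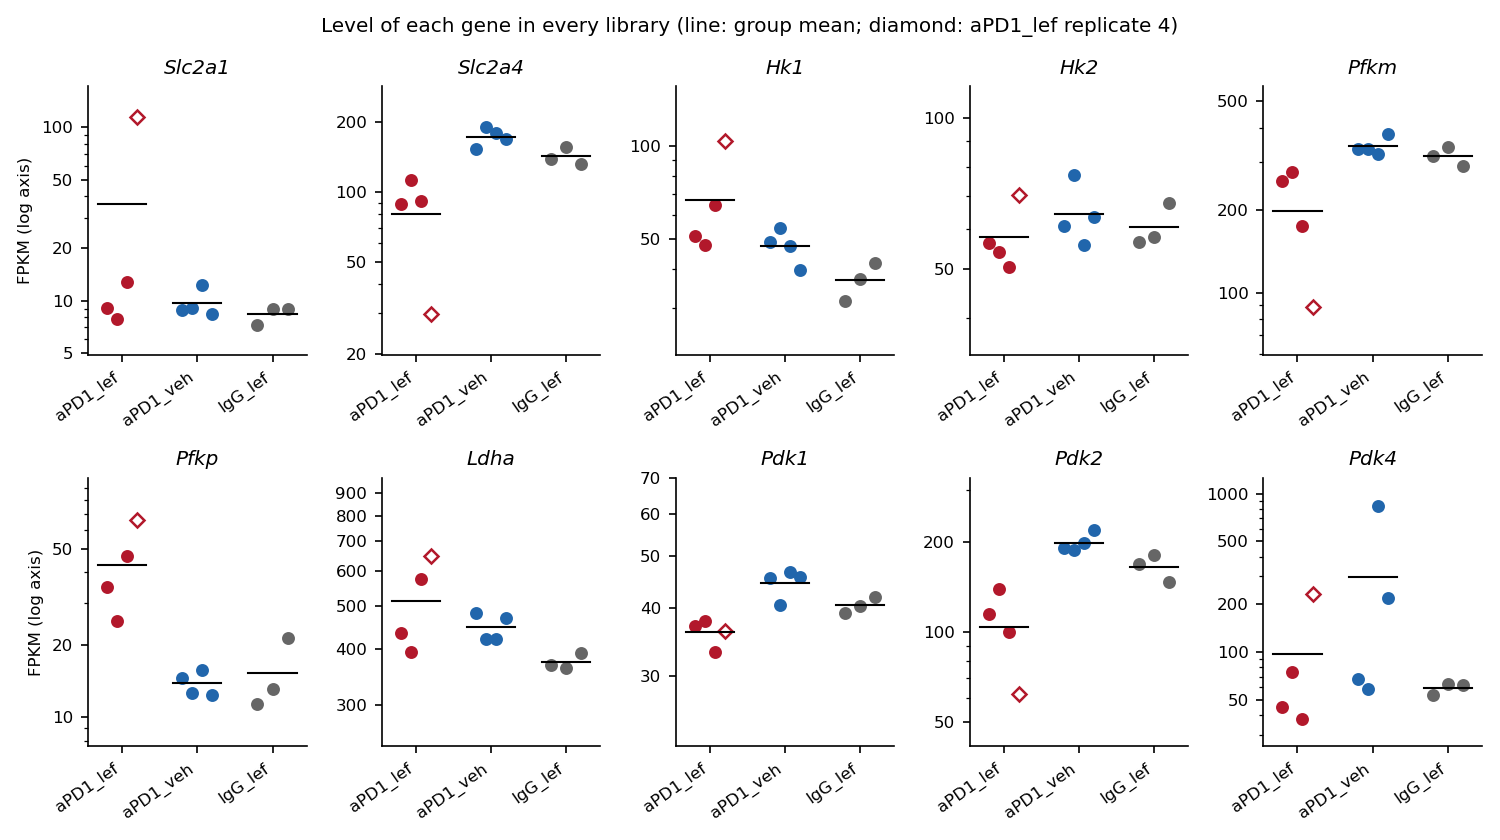
Level of each of the 10 genes in every library, as FPKM on a log axis, for aPD1_lef (n = 4), aPD1_veh (n = 4) and IgG_lef (n = 3). Points are libraries, lines are group means and the diamond is aPD1_lef replicate 4, which lies far above its group in Slc2a1 at 115 FPKM and below it in Slc2a4 at 29.5 FPKM.

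Of the transporters, Slc2a4 (chromosome 11, 69942286 to 69948216, GRCm38) was the more abundant in 10 of the 11 libraries. Its levels in aPD1_lef replicates 1 to 4 were 88.5, 113, 91.7 and 29.5 FPKM. In aPD1_veh they were 154, 191, 180 and 169 FPKM, and in IgG_lef 139, 157 and 133 FPKM. Every aPD1_lef library was below every library of the other groups, and aPD1_veh and IgG_lef overlapped. Slc2a4 fell by 1.25 ± 0.331 (SE) on the log2 scale against aPD1_veh (limma, adjusted p = 0.0176). Without aPD1_lef replicate 4 it fell by 0.83, still with all values apart, and it passed in all 18 settings tried.

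Slc2a1 (chromosome 4, 119108745 to 119137330), the basal transporter, was at 9.08, 7.82 and 12.9 FPKM in aPD1_lef replicates 1 to 3 and at 115 in replicate 4. The aPD1_veh libraries held 8.84, 9.08, 12.2 and 8.38 FPKM, and the IgG_lef libraries 7.27, 8.89 and 8.90. Apart from that 1 library, the values of the 3 groups overlapped, with IgG_lef at the lower end. Its log2 difference of 0.88 ± 0.657 did not pass (limma, adjusted p = 0.320) and was 0.03 without replicate 4. In that library Slc2a1 exceeded Slc2a4, and its share of the summed level of both was 79.6%, against 4.54% to 12.3% in the other 10 libraries.

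The same library held the highest values of several other genes that answer to low oxygen. In replicate 4 of aPD1_lef, the lactate exporter Slc16a3 was at 67.1 FPKM, the phosphofructokinase activator Pfkfb3 at 40.7, the peptide gene Adm at 81.0 and the angiogenic factor Vegfa at 123. The highest values elsewhere were 6.41, 7.07, 7.36 and 49.9 FPKM in turn. These 4 genes were chosen after their values were seen. Pdk1, a hypoxia-inducible form described below, was at 36.4 FPKM in this library, within the 33.2 to 37.9 of its group. Of the 10 measured genes in a list of hypoxia targets outside glycolysis, 9 were highest in this library, against 26.5% of all genes tested. Other lists also held such genes. Highest there were 9 of 14 genes of side branches of glucose metabolism, 9 of 20 regulators and 7 of 16 other glycolysis genes. Of these lists, 3, 9 and 5 genes in turn were lowest there. Among 16 other pyruvate and lactate genes 2 were highest and 13 lowest, and 36.5% of all genes were lowest. Of the 6 members with an ACGTG core in a promoter window, Slc2a1, Ldha and Hk1 were highest in this library, Hk2 was second highest, and Pdk2 and Pfkm were lowest. Pfkp, whose window holds neither ACGTG nor CACGT, was also highest there.

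Among the hexokinases, Hk1 (chromosome 10), the form of most tissues, and Hk2 (chromosome 6), the insulin-regulated muscle form, were at similar levels. Hk1 measured 51.0, 48.0, 64.5 and 104 FPKM in aPD1_lef, 48.9, 54.5, 47.5 and 39.9 in aPD1_veh, and 31.7, 37.1 and 41.8 in IgG_lef. Its values overlapped between the 2 anti-PD-1 groups, and every aPD1_lef library was above every IgG_lef library. The log2 difference from aPD1_veh was 0.42 ± 0.215 (limma, adjusted p = 0.157), and 0.19 without aPD1_lef replicate 4. Hk2 measured 56.2, 54.1, 50.6 and 70.4 FPKM in aPD1_lef, 61.0, 77.1, 55.9 and 63.3 in aPD1_veh, and 56.6, 57.8 and 67.6 in IgG_lef. It had the smallest range of group means of the 10 genes, 0.15 on the log2 scale, and did not pass in any comparison. The share of Hk1 in the sum of both was 47.0% to 59.6% in aPD1_lef, 38.6% to 46.0% in aPD1_veh and 35.9% to 39.1% in IgG_lef. Leaving out the 3 libraries with Myl7 above 10 FPKM, an alternative added after the data were seen, Hk1 passed at 0.78 (limma, adjusted p = 0.0209). The aPD1_lef group then consists of replicates 3 and 4, of which replicate 4 had the highest Hk1.

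The phosphofructokinases moved in opposite directions. Pfkp (chromosome 13, 6579874 to 6649060) was at 34.7, 25.1, 46.7 and 66.0 FPKM in aPD1_lef. In aPD1_veh it was at 14.6, 12.6, 15.7 and 12.4 FPKM, and in IgG_lef at 11.4, 13.1 and 21.3. The lowest aPD1_lef library thus lay above the highest of both other groups. Pfkp rose by 1.49 ± 0.268 on the log2 scale against aPD1_veh (limma, adjusted p = 0.00339), by 1.26 without replicate 4, and passed in all 18 settings.

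Pfkm (chromosome 15), the main form in heart and skeletal muscle, was at 256, 275, 175 and 88.8 FPKM in aPD1_lef. The aPD1_veh values were 333, 335, 321 and 378 FPKM and those of IgG_lef 314, 342 and 289. No aPD1_lef library reached the others. Pfkm fell by 0.90 ± 0.290 on the log2 scale (limma, adjusted p = 0.0358), and by 0.56 without replicate 4, where it still passed. This call was less firm than the others: it held in 9 of 18 settings and was lost, at adjusted p of up to 0.0894, without aPD1_lef replicate 3 or any single aPD1_veh replicate. The liver form Pfkl averaged 41.9 ± 7.17 against 41.5 ± 3.24 FPKM (SD, n = 4 each) and did not pass (limma, adjusted p = 0.998). Pfkm remained the most abundant form in every library, and the share of Pfkp in the sum of the 3 forms was 7.48% to 32.2% in aPD1_lef, 2.89% to 4.13% in aPD1_veh and 3.21% to 6.21% in IgG_lef.

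Ldha (chromosome 7), the subunit of lactate dehydrogenase that prevails in glycolytic muscle, was at 434, 394, 575 and 650 FPKM in aPD1_lef, at 482, 423, 422 and 470 in aPD1_veh, and at 367, 362 and 392 in IgG_lef. The anti-PD-1 groups overlapped, with a log2 difference of 0.17 ± 0.153 (limma, adjusted p = 0.424), and 0.04 without aPD1_lef replicate 4. It became 0.45 (adjusted p = 0.0282) without the 3 libraries with Myl7 above 10 FPKM, where aPD1_lef rests on replicates 3 and 4, its highest in Ldha. How reads shared with processed copies of Ldha were counted is not given in the sources used here. Its partner Ldhb, the heart subunit, was at 605, 706, 468 and 287 FPKM in aPD1_lef and at 1107, 1215, 1116 and 1289 in aPD1_veh. Ldhb fell by 1.27 ± 0.233 on the log2 scale (limma, adjusted p = 0.00377), and by 1.01 without aPD1_lef replicate 4. Ldhb exceeded Ldha in every aPD1_veh and IgG_lef library and in aPD1_lef replicates 1 and 2, and Ldha exceeded Ldhb in replicates 3 and 4.

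**Figure D2:**
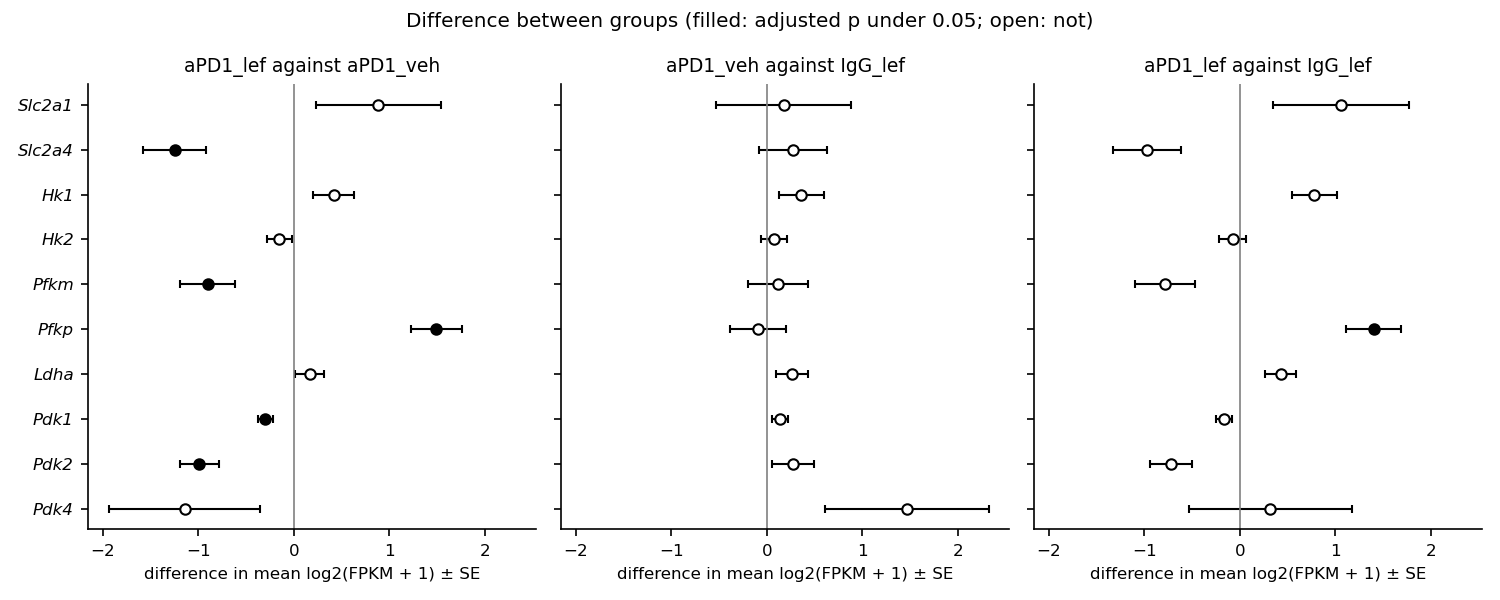
Log2 change of each of the 10 genes in the 3 comparisons, with bars of 1 standard error from limma on log2(FPKM + 1), filled where adjusted p was below 0.05. In both comparisons with aPD1_lef, Pfkp stands to the right of 0, at 1.49 and 1.40, and Slc2a4, Pfkm and Pdk2 stand to the left, while the bars of Pdk4 and Slc2a1 are the widest.

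Of the PDH kinases, Pdk2 (chromosome 11), a main form in heart, was at 115, 139, 99.97 and 62.0 FPKM in aPD1_lef. It was at 192, 188, 199 and 220 FPKM in aPD1_veh and at 169, 181 and 147 in IgG_lef. All aPD1_lef values were below all others. Pdk2 fell by 0.99 ± 0.204 on the log2 scale against aPD1_veh (limma, adjusted p = 0.00622), by 0.76 without replicate 4, and passed in all 18 settings. Pdk1 (chromosome 2), a hypoxia-inducible form, varied least within groups. Its values were 37.1, 37.9, 33.2 and 36.4 FPKM in aPD1_lef, 45.5, 40.7, 46.8 and 45.9 in aPD1_veh, and 39.3, 40.5 and 42.0 in IgG_lef. All aPD1_lef values were below all others, while aPD1_veh and IgG_lef overlapped. Against aPD1_veh, Pdk1 fell by 0.30 ± 0.0763 on the log2 scale (limma, adjusted p = 0.0149), and by 0.30 also without replicate 4. After scaling of all libraries to one total, which moves the median of all genes to 0.17, its log2 difference was -0.15 and no longer passed (adjusted p = 0.143).

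Pdk4 (chromosome 6), the form induced by fasting and fatty acids, varied between libraries of 1 group more than between groups. It was at 67.4 and 58.6 FPKM in aPD1_veh replicates 1 and 2 but at 840 in replicate 3 and 221 in replicate 4. In aPD1_lef it was at 45.0, 75.02 and 38.1 FPKM in replicates 1 to 3 and at 232 in replicate 4, and in IgG_lef at 53.3, 62.6 and 61.9. Thus 3 libraries were high and 8 lay between 38.1 and 75.02 FPKM. The log2 difference of -1.14 ± 0.794 between aPD1_lef and aPD1_veh did not pass (limma, adjusted p = 0.288). Over leaving out each library in turn it ranged from -1.69, without aPD1_lef replicate 4, to -0.36. Pdk4 made up 77.2% of the summed level of the 4 PDH kinases in aPD1_veh replicate 3, 45.2% in replicate 4 and 69.1% in aPD1_lef replicate 4, against 20.3% to 29.5% in the other 8 libraries. Their sum was 1087 FPKM in aPD1_veh replicate 3 and 174 to 488 in the other libraries. Pdk3, the least abundant kinase, averaged 3.26 ± 1.51 against 1.30 ± 0.247 FPKM (SD, n = 4 each). It rose by 0.83 ± 0.224 (limma, adjusted p = 0.0184), a call lost without aPD1_veh replicate 2. Without aPD1_lef replicate 4 its rise was 0.61 and still passed.

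**Figure D3:**
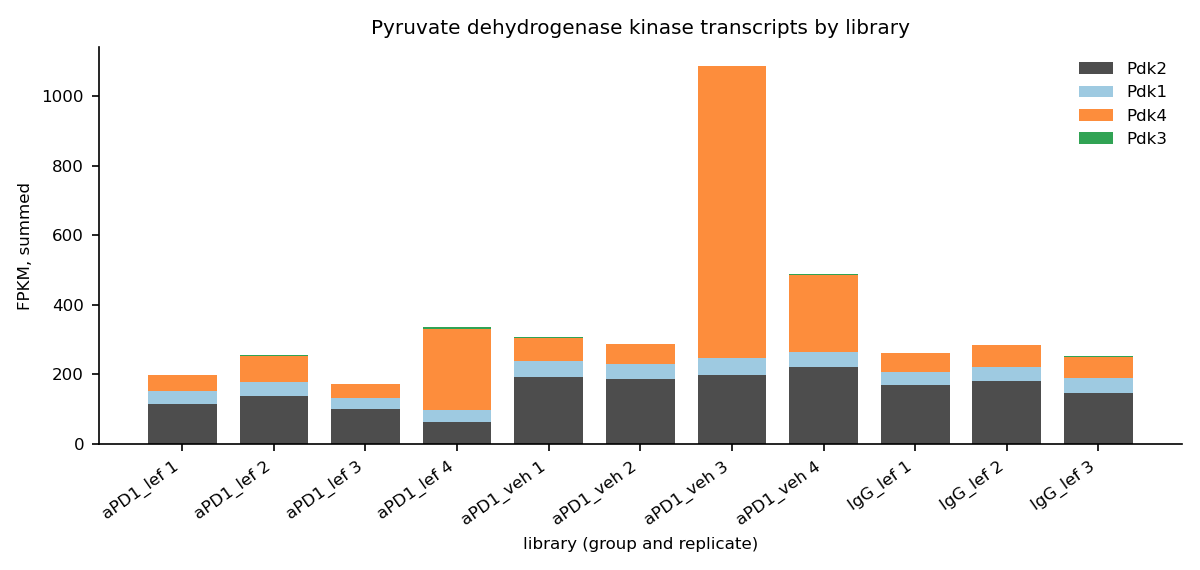
Summed level of the 4 PDH kinase genes in each library, as stacked bars in FPKM from 0, with 1 colour for each gene. The Pdk4 part is 840 FPKM in aPD1_veh replicate 3, and Pdk2 is the largest part in the 8 libraries where Pdk4 is low.

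The genes whose pattern over the 11 libraries was nearest to that of a member were sought among 5041 genes with a mean of at least 10 FPKM, for the 3 members with the widest range of group means. The measure was the mean absolute difference between log2 values, each centred on its gene's mean. For Pfkp the nearest were Actn1 at 0.11, Dap at 0.12 and Anxa2 at 0.13, and for Slc2a4 they were Rbm38 at 0.10, Slc25a42 at 0.11 and Thrsp at 0.12. For Pdk4 the nearest were farther off, with Angptl4 at 0.61, Mt1 at 0.63 and Cldn5 at 0.66. Angptl4, which encodes an inhibitor of lipoprotein lipase, was at 35.3 and 14.7 FPKM in aPD1_veh replicates 3 and 4 and at 91.0 in aPD1_lef replicate 4. In the other 8 libraries it was at 1.97 to 5.93 FPKM. The libraries high in Angptl4 were those high in Pdk4, a match that its choice by likeness to Pdk4 makes likely. The highest library differed, aPD1_lef replicate 4 for Angptl4 and aPD1_veh replicate 3 for Pdk4.

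Paired forms were also compared within each library, as the log2 ratio of (FPKM + 1), which depends little on the scaling of libraries where both levels are well above 1. The ratio of Slc2a1 to Slc2a4 was -3.15, -3.69, -2.74 and 1.93 in aPD1_lef and -3.98, -4.25, -3.77 and -4.18 in aPD1_veh. That of Pfkp to Pfkm was -2.85, -3.40, -1.88 and -0.42 in aPD1_lef and -4.42, -4.63, -4.27 and -4.82 in aPD1_veh. In both, all aPD1_lef libraries lay above all aPD1_veh libraries, and the same held for Hk1 to Hk2 and Ldha to Ldhb. Of single genes, 36.1% did not overlap in this comparison, and the share among ratios of other genes was not computed. The ratio of Hk1 to Hk2 ranged from -0.17 to 0.56 in aPD1_lef and from -0.65 to -0.23 in aPD1_veh, and that of Ldha to Ldhb from -0.84 to 1.18 and from -1.52 to -1.20. The differences in mean were 2.13 for the transporters, 0.57 for the hexokinases, 2.40 for the phosphofructokinases and 1.43 for lactate dehydrogenase. Each had p = 0.0286 in a two-sided exact permutation test, the smallest that 4 against 4 libraries can give, and 0.0286 after Benjamini-Hochberg adjustment over the 4 ratios. The ratios use the same values as the single genes above, so they are no separate support for those results. Without aPD1_lef replicate 4 the differences were 0.85, 0.44, 1.82 and 1.05, with no overlap. Slc2a1 and Ldha then differed by 0.03 and 0.04 on the log2 scale, and Slc2a4 and Ldhb by -0.83 and -1.01. The ratios of Slc2a1 to Slc2a4 and Ldha to Ldhb thus moved mostly through the lower Slc2a4 and Ldhb. In each ratio the aPD1_lef libraries also lay above all IgG_lef libraries, and aPD1_veh and IgG_lef overlapped.

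**Figure D4:**
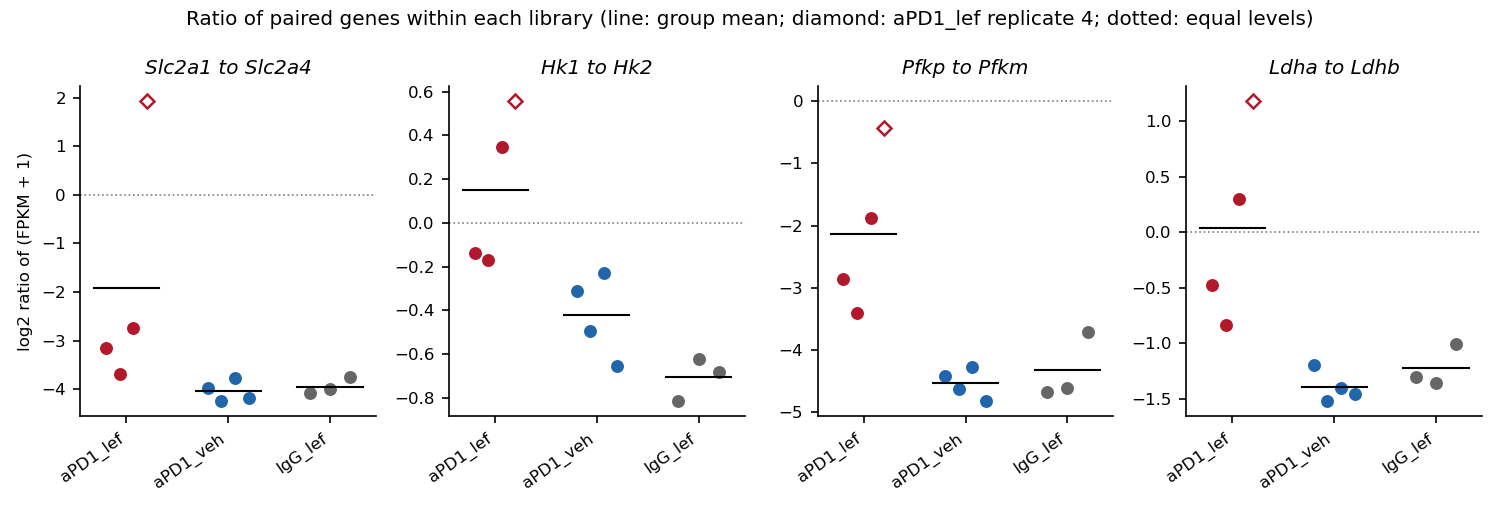
Log2 ratio of the (FPKM + 1) values of paired forms in each library, for Slc2a1 to Slc2a4, Hk1 to Hk2, Pfkp to Pfkm and Ldha to Ldhb. Points are libraries and lines are group means; in all 4 panels every aPD1_lef point (n = 4) lies above every aPD1_veh (n = 4) and IgG_lef (n = 3) point.

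Cell markers moved in the same comparison. The sum of 8 fibroblast markers was 1560, 1343, 1853 and 3378 FPKM in aPD1_lef, 396 to 575 in aPD1_veh and 662 to 1252 in IgG_lef, and 8 of the 8 genes rose against aPD1_veh. Of the 8 heart muscle genes, 3 fell and 5 did not pass, and their sum in aPD1_lef was 12189 to 32014 FPKM against 32585 to 43193. The part of these markers in the changes of Slc2a4, Pfkm, Pdk2, Ldhb and Pfkp was not tested. In bulk RNA, fewer cells of a type and less RNA per cell cannot be told apart. Adipocyte markers, from the other main site of Slc2a4, summed to no more than 2.13 FPKM in any library, with Adipoq at 0 to 0.697. The skeletal muscle genes Myh1 and Myh4 were at no more than 0.0178 FPKM. Platelet markers summed to 29.6, 35.9, 31.6 and 74.8 FPKM in aPD1_lef and 32.7 to 42.9 in aPD1_veh, and overlapped. Of the other marker lists, 5 of 5 erythroid genes, 2 of 4 neutrophil genes, 1 of 7 endothelial and 1 of 4 platelet genes fell, and 1 of 8 macrophage genes rose. Among pericyte and smooth muscle markers 2 of 7 rose and 1 fell, 1 of 3 atrial genes rose, and 1 of 2 skeletal muscle genes, Ckm, which the heart also expresses, fell. The neutrophil markers summed to 3.01, 5.12, 5.15 and 51.6 FPKM in aPD1_lef replicates 1 to 4, to 48.3 to 103 in aPD1_veh and to 3.23 to 13.7 in IgG_lef, so replicate 4 lay within the aPD1_veh range. T and NK cell markers were all below the filter. Across all genes tested, 18.2% rose and 14.3% fell.

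Related genes that handle pyruvate and lactate were mostly lower. Of 16 tested, 9 fell, 1 rose and 6 did not pass, with a median log2 change of -0.53 against 0.04 over all genes, of which 14.3% fell. Those that fell include Ldhb, Pcx, which makes oxaloacetate from pyruvate, and Pdp2, the phosphatase that reactivates PDH. Pcx averaged 7.88 ± 0.375 against 11.8 ± 1.55 FPKM (SD, n = 4 each; limma, adjusted p = 0.00326), and Pdp2 2.37 ± 1.46 against 7.31 ± 1.84 (adjusted p = 0.0067). The mitochondrial pyruvate carriers Mpc1 and Mpc2 fell by 0.60 and 0.87 on the log2 scale, and the PDH subunits Pdha1, Dlat and Dld fell by 0.61, 0.52 and 0.73, and Bsg, a partner of lactate carriers, fell by 0.51. The gene that rose was Pdk3. Genes for 2 PDH kinases, a PDH phosphatase and 3 subunits of the complex were thus lower in the same libraries.

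Of 16 other glycolysis genes, 1 rose, 3 fell and 12 did not pass, with a median of 0.02. Of all genes, 18.2% rose and 14.3% fell. The number called was 2 in place of 4 without aPD1_lef replicate 3, aPD1_veh replicate 2 or aPD1_veh replicate 4. Eno3, the muscle enolase, averaged 330 ± 201 against 830 ± 129 FPKM (SD, n = 4 each). It fell by 1.61 on the log2 scale (limma, adjusted p = 0.0243), and by 1.07 without aPD1_lef replicate 4. The call was lost without aPD1_lef replicate 3, aPD1_veh replicate 2 or aPD1_veh replicate 4. Aldoa, the muscle aldolase, fell by 0.31. Pfkfb1 and Pfkfb4 make and break fructose 2,6-bisphosphate, the activator of phosphofructokinase. Pfkfb1 was at 0.468, 1.504, 1.29 and 0.616 FPKM in aPD1_lef and at 4.13, 6.46, 12.2 and 8.48 in aPD1_veh, and fell by 2.11 ± 0.274 (adjusted p = 0.000725). Pfkfb4, at 2.44 ± 0.651 against 0.921 ± 0.57 FPKM, rose by 0.86 (adjusted p = 0.0136) although its groups overlapped.

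Of 14 other genes of glucose transport and insulin action, 2 rose, 3 fell and 9 did not pass, with a median of -0.12. Over all genes tested, 18.2% rose and 14.3% fell. The transporter Slc2a12 averaged 0.958 ± 0.501 against 3.24 ± 0.464 FPKM (SD, n = 4 each) and fell by 1.15 (limma, adjusted p = 0.0017). Akt2, the kinase that brings GLUT4 to the membrane, fell by 0.59 (adjusted p = 0.00389), and Tbc1d4, an Akt target that holds GLUT4 inside the cell, fell by 0.93. Slc2a10 rose by 0.80 (limma, adjusted p = 0.00196) from a low level, 0.608 ± 0.143 FPKM in aPD1_veh. It passed the filter on low values only through the aPD1_lef libraries, so whether it was tested depended on its level there. It was not tested where any of them was left out. Tbc1d1, a relative of Tbc1d4, rose by 0.55. Txnip, which glucose induces and which restrains glucose uptake, was at 250 ± 48.5 against 375 ± 168 FPKM and did not pass (adjusted p = 0.262). Its 2 highest libraries, at 556 and 476 FPKM, were aPD1_veh replicates 3 and 4, which were also high in Pdk4.

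Of 17 glycogen genes, 3 were higher and 5 lower, with a median of -0.19, where 18.2% of all genes were higher and 14.3% lower. The number called was 5 in place of 8 without aPD1_veh replicate 2 or without aPD1_veh replicate 3. Phkg1, the catalytic subunit of muscle phosphorylase kinase, fell by 1.65 (limma, adjusted p = 0.00145), the muscle phosphorylase Pygm by 1.05 (adjusted p = 0.00701) and the muscle glycogen synthase Gys1 by 0.60 (adjusted p = 0.0053). Phka1 was also among those that fell, and Gsk3b, Ppp1r3c and Stbd1 rose. Of 14 genes of the side branches, 3 rose and 2 fell, with a median of 0.36; without aPD1_lef replicate 3 the number called was 3, and without aPD1_veh replicate 4 it was 2. Pgm3, Gfpt1 and Gnpnat1, all of the hexosamine pathway that makes sugar nucleotides, rose by 0.63, 0.40 and 0.40 on the log2 scale. The genes of the polyol pathway that fell were Sord, by 1.85 (limma, adjusted p = 0.00369), and Akr1b3, by 0.71 (adjusted p = 0.0228). Without aPD1_lef replicate 4 Sord fell by 1.46 and Akr1b3 by 0.48. The Akr1b3 call was lost without aPD1_lef replicate 3 or aPD1_veh replicate 1, 2 or 4.

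Among 20 regulators, 1 rose, 6 fell and 13 did not pass, where 18.2% of all genes rose and 14.3% fell. Hif1a, the oxygen-sensitive factor, was at 30.9, 23.9, 34.3 and 69.6 FPKM in aPD1_lef and at 15.6, 15.7, 15.2 and 16.1 in aPD1_veh. It rose by 1.17 ± 0.262 (limma, adjusted p = 0.00887), and by 0.87 without aPD1_lef replicate 4. Egln1, the prolyl hydroxylase that marks HIF proteins for degradation, was at 93.7, 109, 100.4 and 94.3 FPKM in aPD1_lef and at 163, 182, 184 and 159 in aPD1_veh, and fell by 0.79 ± 0.0917 (adjusted p = 0.000394). Neither pair of groups overlapped. The others that fell include factors of mitochondrial and fatty acid metabolism. Ppargc1a fell by 1.25 ± 0.131 (limma, adjusted p = 0.000226) and Klf15 by 1.04 ± 0.164 (adjusted p = 0.00187). Ppara fell by 0.70 ± 0.182 (adjusted p = 0.0166) and Esrra by 0.75. Epas1, a relative of Hif1a, fell by 0.33. Of the 10 other hypoxia targets, Bhlhe40 rose by 1.78 (limma, adjusted p = 0.0184) and P4ha1 by 0.85 (adjusted p = 0.0243). The other 8 did not pass, where 18.2% of all genes rose and 14.3% fell. Without aPD1_lef replicate 4, Bhlhe40 rose by 1.18 and P4ha1 by 0.65. Bhlhe40 did not pass without aPD1_veh replicate 4, and P4ha1 did not without that library or aPD1_lef replicate 3.

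**Figure D5:**
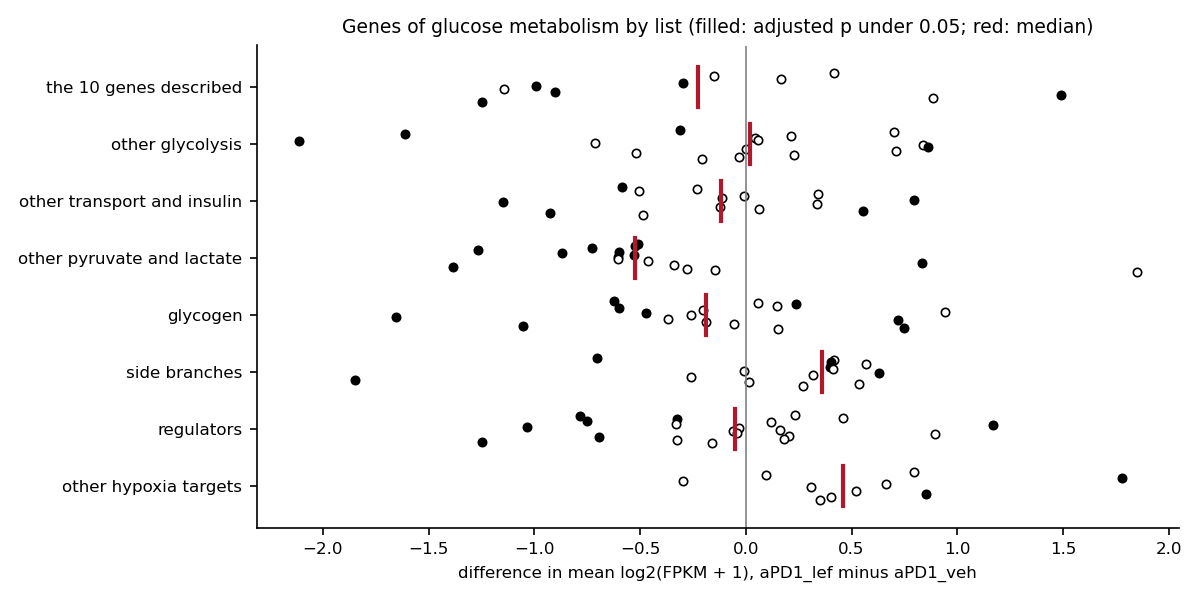
Difference in mean log2(FPKM + 1), aPD1_lef minus aPD1_veh, of each gene tested in the 10 and in each list of related genes; a point is a gene, filled where adjusted p was below 0.05, and red marks the median of the list. Pyruvate and lactate genes have 9 of 16 called lower and a median of -0.53, and the hypoxia targets have 2 of 10 called higher and 0 lower. Of all genes tested, 18.2% were called higher and 14.3% lower.

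The second comparison, aPD1_veh against IgG_lef, sets hearts given anti-PD-1 with vehicle against hearts given IgG with leflunomide. None of the 10 genes passed in limma, and 0 of them had an unadjusted p below 0.05; of all genes tested, 1.17% were called (0.242% higher and 0.925% lower) and 11.4% had such a p. The median log2 change of the 10 was 0.22, against 0.01 over all genes. Ldha and Pdk2 were higher in every aPD1_veh library than in any IgG_lef library, where 19.0% of all genes did not overlap (11.1% higher and 7.91% lower). Their log2 differences were 0.26 ± 0.165 (limma, adjusted p = 0.611) and 0.27 ± 0.220 (adjusted p = 0.711). Pdk4 had the largest difference at 1.47 ± 0.857 (adjusted p = 0.584), from the 2 high aPD1_veh libraries: the other 2, at 67.4 and 58.6 FPKM, lay close to the 3 of IgG_lef. Of the related lists, 1 regulator was called, Egln1, higher by 0.50 (adjusted p = 0.0373), a call lost whichever of the 7 libraries was left out.

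The last comparison, aPD1_lef against IgG_lef, holds the drug label constant and sets anti-PD-1 against IgG. Pfkp alone of the 10 genes passed, higher by 1.40 ± 0.290 on the log2 scale (limma, adjusted p = 0.0270), and 7.16% of all genes were called (5.15% higher and 2.01% lower). That call was lost without aPD1_lef replicate 3 (adjusted p = 0.0853), IgG_lef replicate 1 (0.153) or IgG_lef replicate 2 (0.0805), while the log2 difference stayed between 1.17 and 1.65. Of the 10 genes, 6 passed without aPD1_lef replicate 2, where 2276 of all 11917 genes tested were called. Without aPD1_lef replicate 4, 4 of the 10 passed, and 1268 of all 11911 genes tested. In 7 genes the groups had values that did not overlap, against 26.7% of all genes (15.3% higher and 11.4% lower). Hk1, Pfkp and Ldha were higher, and Slc2a4, Pfkm, Pdk1 and Pdk2 were lower. At an unadjusted p below 0.05 there were 6 of the 10, against 30.0% of all genes. The log2 differences of those not called were 0.78 ± 0.232 for Hk1 (adjusted p = 0.0617), -0.72 ± 0.220 for Pdk2 (adjusted p = 0.0667) and -0.97 ± 0.357 for Slc2a4 (adjusted p = 0.102). Pfkm differed by -0.79, Ldha by 0.43 and Pdk1 by -0.16. Both comparisons that include aPD1_lef share its 4 libraries, so their values are not independent.

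In that comparison few of the related genes passed. Pfkfb1, Phkg1, Sord and Ppargc1a were lower, by -1.39, -1.46, -1.40 and -0.65 on the log2 scale. Slc2a10 and Pgm3 were higher by 0.74 and 0.57, where Slc2a10 again was tested only through its level in the aPD1_lef libraries. None of these 6 calls held with only the 2 groups fitted or with the replicate number as a block. On leaving out 1 library, Pfkfb1, Sord and Pgm3 were each lost in 5 of 7 cases, Ppargc1a in 4 of 7, Phkg1 in 3 of 7, and Slc2a10 in 2 of the 3 cases in which it was tested. None of the 16 pyruvate and lactate genes passed in limma. Of them, 12 had an unadjusted p below 0.05, against 30.0% of all genes, and 11 were lower without overlap, against 11.4%. Fibroblast markers were higher in aPD1_lef than in IgG_lef for 2 of 8 genes, Mfap5 and Dcn, where 5.15% of all genes were called higher.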

How the data were processed

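Gene values of mouse heart RNA come from 1 deposited table (34714 genes, 12 value columns), of which 11 matched a label and were used; 1 column matched none and was not used. Its name has the digits of the fourth IgG_lef label in another order, so IgG_lef may lack a library that the table holds. Per the labels, RNA was taken up in TRIzol and libraries were prepared by a NEBNext Ultra protocol. No source names the unit, and the authors' deposited values were taken to be FPKM. TPM without mitochondrial genes cannot be told apart, since 0 such genes are in the table. The submitters' processing notes name HISAT2, DESeq2 and mm10, with no roles or versions. Read depth is unknown, so no counting intervals are given.

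A gene was tested where 4 or more libraries had 1 or above (12005 genes), and analysed as log2(value + 1), which understates changes of low genes. One model of the 3 groups was fitted with limma 3.58.1 (lmFit and a robust eBayes with trend; R 4.3.3, statmod 1.5.0), with Benjamini-Hochberg adjustment within each comparison and a threshold of 0.05. The 4 ratios were tested by exact permutation (SciPy 1.17.1). The fit was tested on simulated data. A negative binomial test had been planned had the table held counts.

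The members and gene lists were chosen with earlier results of these data known. Named were the 10 members, up to 3 called genes with the smallest p from each list, and Ldhb, Pdk3, Pfkl, Txnip, Hif1a, Ppara and Ppargc1a; other genes named were chosen after their values were seen. Alternatives were another pseudocount (0.1), no filter, quantile normalization, scaling to one total, limma without trend or robust weights, only the groups compared, the replicate number as a block, leaving out each library, and, added after seeing the data, scaling by median ratios and the omission of 3 libraries with Myl7 above 10. Gene coordinates and promoters are RefSeq's for GRCm38.p6.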

Additional observations from a re-analysis of the deposited data

Results flagged for a closer look

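Of 78 groups of 4 libraries checked for a library far from the rest, 4 were marked, where chance marks about 1 in 20. In aPD1_veh, Pcx was at 14.2 FPKM in replicate 3 and at 10.9 to 11.2 in the others. In aPD1_lef, replicate 4 stood apart in 3 measures: Pdk3 at 5.50 FPKM against 2.30 to 2.65 in the others, Txnip at 322 FPKM against 222 to 230, and the log2 ratio of Slc2a1 to Slc2a4 at 1.93 against -3.69 to -2.74.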

How the results depend on the processing

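Calls among the 10 genes in aPD1_lef against aPD1_veh kept their direction in every setting run; Pdk2, Pfkp and Slc2a4 passed in 18 of 18, Pdk1 in 17 and Pfkm in 9. The number called among the 10 was 5, and 4 to 5 on leaving out each library. It was 3 with every library scaled to one total and 7 without the 3 libraries with Myl7 above 10. Over all genes tested, 3892 of 12005 were called, 4591 of 12005 with one total and 4245 of 11720 without the Myl7 libraries. In aPD1_lef against IgG_lef the number among the 10 was 1, and 0 to 6 on leaving out each library. It was 0 with no filter on low values, 0 with only the 2 groups fitted and 0 with the replicate block. Without the 3 libraries with Myl7 above 10 it was 5. Over all genes, 859 of 12005 were called there, and 277 of 24367 with no filter. None were with only the 2 groups or with the block, and 2081 of 11720 were without the Myl7 libraries. In aPD1_veh against IgG_lef the number among the 10 was 0 throughout.

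Without 1 library the ratio differences ranged from 0.85 to 2.72 (Slc2a1 to Slc2a4), 0.44 to 0.68 (Hk1 to Hk2), 1.82 to 2.82 (Pfkp to Pfkm) and 1.05 to 1.72 (Ldha to Ldhb), each at exact permutation p = 0.0571, the smallest possible there. With libraries paired by replicate number as a block, they were 2.13, 0.57, 2.40 and 1.43, each at an exact p of 0.125, also the smallest possible. The labels do not say whether the numbers pair the samples. Deviations of same-numbered libraries correlated at -0.29 to 0.19, and the own number was the best match in 2 of 20 cases. The block gave 3602 called genes against 3892 in aPD1_lef against aPD1_veh and 0 in both other comparisons.

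The results that changed sign were not called in any of these settings. In aPD1_lef against aPD1_veh, Pfkl was at 0.00 and at 0.15 with one total, 0.20 without the Myl7 libraries and -0.090 to 0.072 on leaving out libraries. In aPD1_veh against IgG_lef, Slc2a1 was -0.23 with the block, Hk2 -0.0088 with one total and -0.011 to 0.16 on leaving out libraries, Pfkm -0.0011 with quantile normalization, and Pfkp -0.27 to 0.16 on leaving out libraries. In aPD1_lef against IgG_lef, Pdk4 was -0.020 with the block, -0.22 without aPD1_lef replicate 4 and up to 0.64 on leaving out other libraries, and Hk2 -0.17 to 0.0044 on leaving out libraries. The causes were not tested.

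Over all genes, calls in aPD1_lef against aPD1_veh were 2181 higher and 1711 lower, 1784 and 2205 with quantile normalization, and 3467 and 1124 with one total, where the median change was 0.17. They numbered 2379 to 4264 on leaving out libraries. The 140 calls of aPD1_veh against IgG_lef became 405 with only those groups, 92 without a filter, and 3 to 90 on leaving out libraries. The 859 of aPD1_lef against IgG_lef became 0 with only those groups, 277 without a filter, 2081 without the Myl7 libraries, and 2 to 2276 on leaving out libraries. The group sizes and unknown depth limit what these comparisons can show.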
